A study of Mus musculus with 6 samples.

Results

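Coagulation and complement factors are plasma proteins that the liver makes, and their transcripts were compared between livers with and without hepatocyte estrogen receptor alpha (ERα, gene Esr1). The 38 genes were listed by function, as 13 procoagulant genes, 6 anticoagulant and fibrinolytic genes and 19 complement genes. Of these, 34 had a probe set that the array's annotation gives to a single gene, among 6902 genes measured this way above the signal filter. Only Fga had a second such probe set, and the brighter of them on average was used. Klkb1 and Masp2 share their probe sets with another gene, and no probe set was named for C3 and Cfd, so these 4 genes were not analysed here. All 34 measured genes reached a signal of 100 in all 6 arrays, so the filter removed none of them.

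Liver RNA of 3 LERKO and 3 CT mice, all females on a C57BL/6J background, was measured with 1 array per mouse. LERKO mice carry floxed ERα alleles and cre recombinase under the albumin promoter (Alb-cre/ERα fl/fl), and CT mice carry the same floxed alleles without cre (ERα fl/fl). Effects of cre and of ERα loss therefore cannot be told apart, and the albumin promoter acts in hepatocytes but not in the other cells of the liver. The age of these mice and whether they had been fasted are not given in the sources used here. Values are log2 signals from the robust multichip average (RMA), and a log2 fold change is LERKO minus CT throughout.

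Esr1 had signals of 6.75, 7.06 and 6.77 in LERKO mice, against 8.45, 8.78 and 8.29 in CT mice, so each array carried the level of its labelled genotype. All 8 hepatocyte markers, among them Alb and Ttr, were above a signal of 100 in every array, and their summed linear signal was 59269 to 62328 in LERKO mice and 60709 to 64653 in CT mice. A pair of arrays held transcripts of other organs. The summed signal of 6 adrenal cortex markers was 7137 in LERKO replicate 2 and at most 95.4 in the other 5 mice. That of 6 pancreas markers was 1787 in CT replicate 3 and at most 110.6 elsewhere. That of 6 skeletal muscle markers was 856.8 in CT replicate 3, 222.3 in LERKO replicate 2 and at most 109.0 elsewhere. The summed signal of 9 adipocyte markers was 9216.5 in LERKO replicate 2 and 7986.7 to 8959.8 in the other 5 mice. Retn, Adipoq, Plin1, Fabp4, Cidec and Lipe were highest in LERKO replicate 2, whereas Plin4, Lep and Car3 were highest in other mice. Each array had 9452 to 9865 probe sets at or above 100, and correlations between arrays over the probe sets kept lay between 0.9675 and 0.9889. The labels call the samples biological replicates. The number of arrays limits the precision.

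In coagulation, proteases that circulate as inactive precursors activate each other in sequence until thrombin, made from the F2 product prothrombin, turns fibrinogen into fibrin. Antithrombin, heparin cofactor and the protein C pathway restrain this sequence, and plasmin dissolves the fibrin. Complement is a parallel set of plasma proteins that marks microbes for uptake and ends in a pore, the membrane attack complex. Hepatocytes make most of these proteins, whereas the chains of C1q come from macrophages, in liver the Kupffer cells. Oral estrogen is known to alter the plasma levels of several coagulation factors and inhibitors in women, and in rats estrogen raises the liver transcript of factor XII.

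No coagulation or complement transcript was shown to differ between LERKO and CT liver beyond the spread between mice. Of the 34 genes, 0 passed an adjusted p of 0.05 in limma. An unadjusted p of 0.05 was passed by 0 of them, by limma or by the methods' t-test. Of all 10633 probe sets tested, 6.98% passed the unadjusted threshold in limma and 4.28% in the t-test. Over all probe sets 0% passed the adjusted threshold, and Esr1, with the smallest p of all and a 3.13-fold lower mean in LERKO liver, did not pass it either (adjusted p = 0.149 from limma). The paper, also with limma, reports Esr1 among the significantly regulated genes, a call that the main fit used here did not reproduce. Its signal filter can also be read as a signal of 100 in all 6 arrays. With that filter 3 probe sets passed the adjusted threshold, and which ones is not reported here. The paper also found ERα lower in LERKO liver by quantitative PCR and by western blot. The smallest p among the 34 genes was 0.108, for C8b, and their adjusted p values lay between 0.745 and 0.999 (limma, Benjamini-Hochberg over all probe sets). Mean signals were higher in LERKO liver for 13 genes and lower for 21 genes (61.8%), beside 53.5% lower among all probe sets tested. Their median log2 fold change was −0.034, beside −0.0099 over all probe sets. LERKO and CT mice were fully apart for 1 of the 34 genes (2.94%), F10, beside 13% of all probe sets (7.13% lower and 5.91% higher in LERKO liver).

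**Figure D1:**
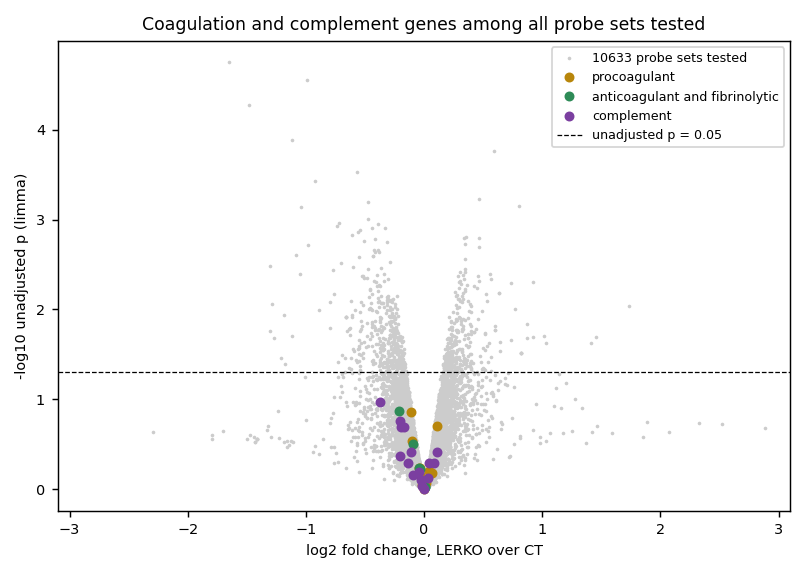
Log2 fold change of LERKO over CT (x axis) against −log10 of the unadjusted p from limma (y axis) for 10633 probe sets (grey) and the 34 coagulation and complement genes (coloured by role). All 34 genes lie below the dashed line that marks the unadjusted threshold, within log2 fold changes of −0.37 to 0.11.

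How large a difference in array signal these data leave room for can be read from the confidence intervals. They are intervals of signal, and how closely signal follows transcript level was not tested. For 30 of the 34 genes (88.2%) the 95% interval from limma lay inside a 1.5-fold change in either direction, as it did for 85.3% of all probe sets tested and for 90.5% of the 6938 probe sets whose mean signal lay in the range of these genes. This held for all 12 procoagulant genes and for all 6 anticoagulant and fibrinolytic genes. The exceptions were complement genes, C8b (log2 interval −0.86 to 0.11), C8a (−0.79 to 0.38), C1qc (−0.68 to 0.49) and C6 (−0.62 to 0.34). For each of these 4 a signal lower by more than 1.5-fold in LERKO liver was within the interval. The median SD within a group was 0.098 over the 34 genes, 0.110 over the probe sets in their signal range and 0.123 over all probe sets.

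**Figure D2:**
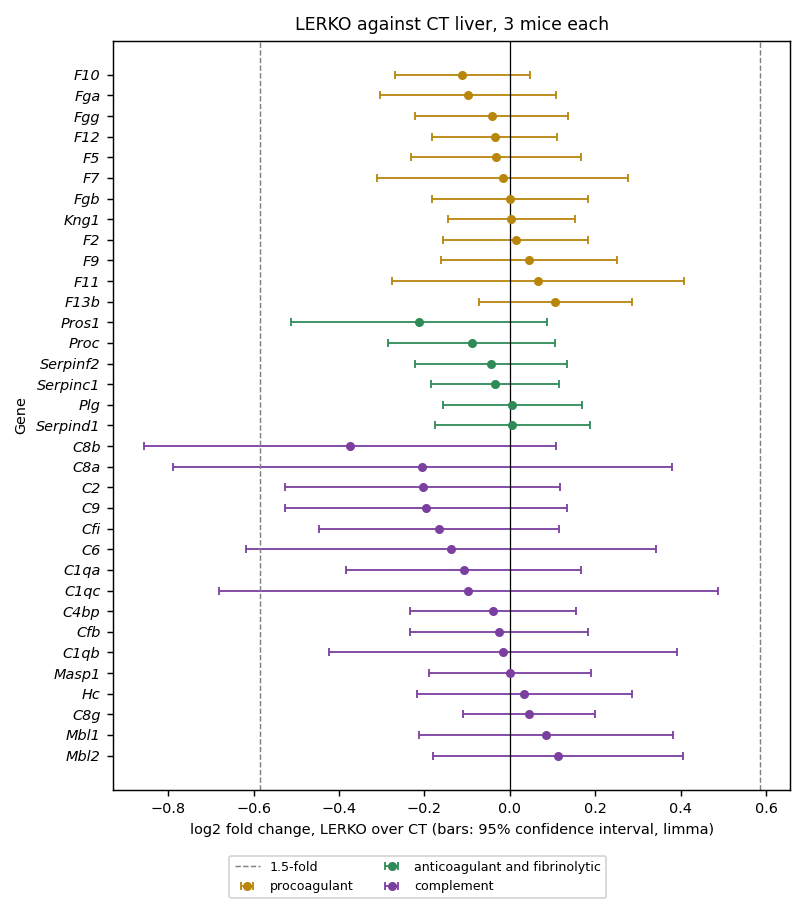
Log2 fold change of LERKO over CT for 34 genes, with the 95% confidence interval from limma (3 mice per group); dashed lines mark a 1.5-fold change. Intervals of all procoagulant, anticoagulant and fibrinolytic genes lie between the dashed lines, and those of C8b, C8a, C1qc and C6 cross the lower one.

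Among the procoagulant genes, 6 had higher and 6 had lower means in LERKO liver, with a median log2 fold change of −0.0084 and a range from −0.11 to 0.11. F10, which encodes factor X, the protease that converts prothrombin to thrombin, had signals of 11.27, 11.27 and 11.25 in LERKO mice, against 11.38, 11.44 and 11.31 in CT mice. The LERKO mice formed a tight group just below the lowest CT mouse. The log2 fold change of −0.11 (standard error 0.066, 1.08-fold lower, adjusted p = 0.758 from limma) ranged from −0.14 to −0.080 with 1 array left out. The within-group SD of F10 was 0.046, and the smallest p that an exact two-sided permutation test allows in this design is 0.10. F7, the neighbour of F10 on the chromosome, encodes the protease that tissue factor activates and gave a log2 fold change of −0.017, with a standard error of 0.12. Its signal was 9.91 in CT replicate 2 and between 9.46 and 9.68 in the other 5 mice.

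The genes of the contact system and the intrinsic pathway ranged from steady to variable between mice. F12, the factor XII gene that starts contact activation, had 11.32, 11.28 and 11.28 in LERKO mice, against 11.31, 11.35 and 11.31 in CT mice. Its within-group SD of 0.023 was the smallest of the 34 genes, and the interval of its log2 fold change ran from −0.18 to 0.11. Kng1, which encodes kininogen, the cofactor of contact activation, differed by 0.0030 on the log2 scale (−0.15 to 0.15). F11 and F9, whose products act next in this order, had log2 fold changes of 0.065 (−0.28 to 0.41) and 0.044 (−0.16 to 0.25). F11 varied most among the procoagulant genes, between 8.13 and 8.48 in LERKO mice and between 7.97 and 8.42 in CT mice. Prothrombin (F2) and its activating cofactor factor V (F5) had log2 fold changes of 0.013 (standard error 0.071) and −0.033 (standard error 0.083), and the groups overlapped.

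The 3 fibrinogen genes lie side by side on the chromosome, and their products assemble into 1 protein. Fga had signals of 10.40, 10.41 and 10.45 in LERKO mice, against 10.40, 10.67 and 10.49 in CT mice. Fgb had 12.83, 12.79 and 12.86 in LERKO mice, against 12.71, 12.89 and 12.88 in CT mice. Fgg had 13.01, 12.96 and 13.04 in LERKO mice, against 12.93, 13.11 and 13.08 in CT mice. On these probe sets CT replicate 2 was the highest mouse and CT replicate 1 the lowest for each chain, with all LERKO mice between them. The log2 fold changes were −0.098 for Fga, 0.00023 for Fgb and −0.043 for Fgg, with standard errors of 0.075 to 0.086 and adjusted p values of 0.821 or more from limma. The second probe set of Fga gave a log2 fold change of −0.20, with 8.20, 8.35 and 8.33 in LERKO mice and 8.45, 8.67 and 8.37 in CT mice. F13b, the carrier subunit of the enzyme that cross-links fibrin, had 9.98, 9.88 and 9.80 in LERKO mice, against 9.83, 9.78 and 9.74 in CT mice. With 0.11 (standard error 0.075, adjusted p = 0.790 from limma) it had the highest mean difference of the procoagulant genes, and 1 CT mouse lay within the LERKO range.

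**Figure D3:**
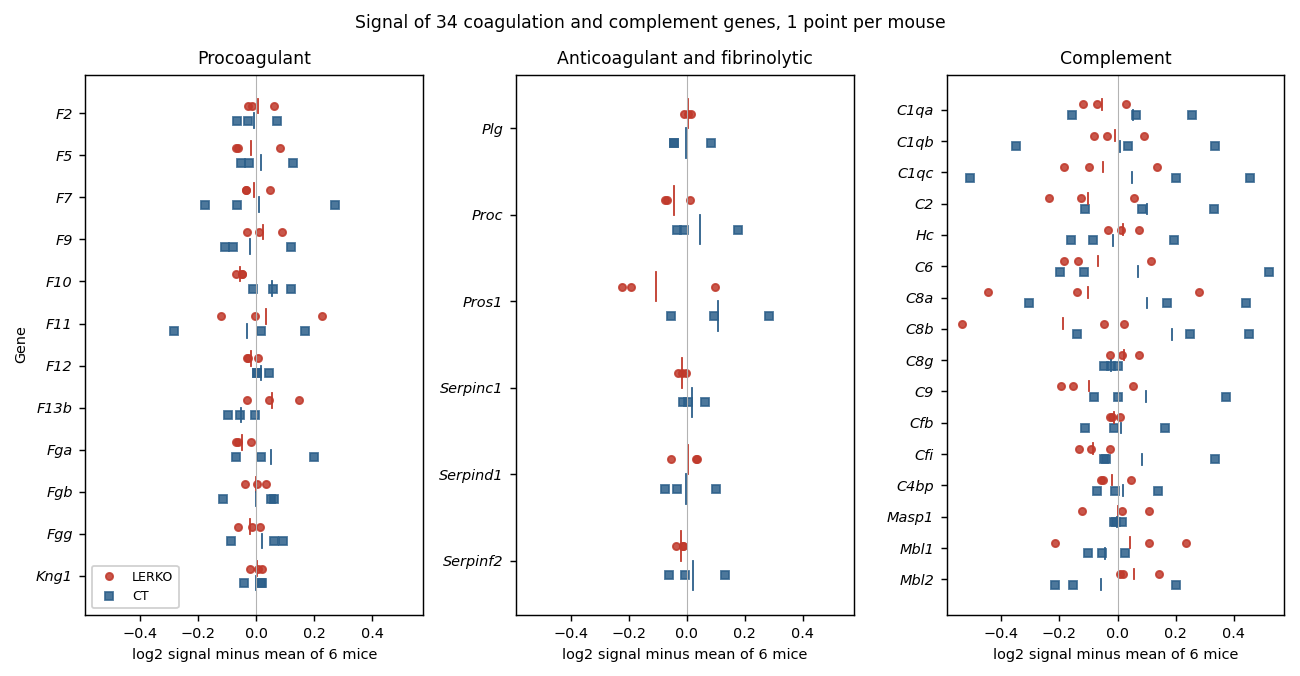
Log2 signal of 34 genes relative to the mean of the 6 mice, 1 point per mouse, LERKO (circles) above CT (squares), with short lines at the group means. LERKO and CT mice overlap for every gene except F10, and the within-group SD is highest for C1qc, C8a, C8b, C6 and C1qb.

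The promoters of F10 and F12 are shown because F10 was the gene whose groups did not overlap and because estrogen acts on F12 in rats. Each window covers 250 bases before to 50 bases after the start of the gene (RefSeq, GRCm38.p6), F10 at chr8:13037058-13037357 on the plus strand and F12 at chr13:55426755-55427054 on the minus strand. Capitals mark AGGTCA on either strand, the 6-letter arm of the estrogen response element.
F10: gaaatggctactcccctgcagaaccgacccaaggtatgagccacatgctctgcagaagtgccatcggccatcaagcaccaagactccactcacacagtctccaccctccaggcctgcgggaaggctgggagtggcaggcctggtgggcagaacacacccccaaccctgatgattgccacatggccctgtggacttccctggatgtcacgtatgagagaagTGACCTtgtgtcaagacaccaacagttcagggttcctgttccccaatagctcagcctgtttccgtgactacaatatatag
F12: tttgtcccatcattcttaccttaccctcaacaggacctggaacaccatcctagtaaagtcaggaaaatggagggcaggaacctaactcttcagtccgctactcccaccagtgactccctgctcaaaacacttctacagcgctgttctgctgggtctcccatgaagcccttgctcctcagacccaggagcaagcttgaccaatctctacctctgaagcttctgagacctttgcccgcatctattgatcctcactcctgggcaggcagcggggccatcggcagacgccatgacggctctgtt
The full element, searched as GGTCA and TGACC with any 3 bases between them, was in 0 of the 27 windows of the 26 measured genes matched in RefSeq, and in 0.07% of the 32851 windows of all genes. AGGTCA was found once in the F10 window and not in the F12 window. It was found for 12 of the 26 genes (46.2%), among them F2, F5, F7, F9 and Fgg, and in 16.3% of all windows. These matches describe letters in a short window and not bound sites. The shares were not tested against each other, and the windows of all genes were not limited to genes active in liver.

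Of the 6 anticoagulant and fibrinolytic genes, 2 had higher and 4 had lower means in LERKO liver, with a median log2 fold change of −0.039. Pros1 encodes protein S, the cofactor of activated protein C, and had signals of 7.39, 7.67 and 7.36 in LERKO mice, against 7.67, 7.86 and 7.52 in CT mice. A pair of LERKO mice lay below all CT mice, and LERKO replicate 2, the array with adrenal transcripts, lay above CT replicate 1 and 3. On the log2 scale LERKO minus CT was −0.21, with a standard error of 0.12 and an adjusted p of 0.758 in limma. Without LERKO replicate 2 it was −0.31 (unadjusted p = 0.0405, adjusted p = 0.654 from limma). The groups then no longer overlapped because the LERKO mouse that lay above CT mice was left out. In this fit 25.9% of all probe sets had groups apart. Here Proc, the gene of protein C itself, had 11.03, 11.12 and 11.04 in LERKO mice, against 11.07, 11.28 and 11.10 in CT mice. CT replicate 2 stood above the other 5 mice, and the log2 fold change was −0.090 (standard error 0.082).

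Serpinc1 and Serpind1, which encode antithrombin and heparin cofactor II, inhibitors of thrombin, had log2 fold changes of −0.035 (−0.18 to 0.11) and 0.0061 (−0.18 to 0.19). Plg, the precursor of plasmin, had 12.80, 12.81 and 12.79 in LERKO mice, against 12.75, 12.88 and 12.75 in CT mice. The LERKO mice lay between the CT mice, with a log2 fold change of 0.0055 (−0.16 to 0.17). Serpinf2, the inhibitor of plasmin, had a log2 fold change of −0.044 (−0.22 to 0.13). In all 6 of these genes CT replicate 2 had the highest signal.

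The complement genes had a wider spread than the coagulation genes, with a median within-group SD of 0.17, beside 0.074 for the procoagulant and 0.072 for the anticoagulant and fibrinolytic genes. Of 16 measured, 5 had higher and 11 had lower means in LERKO liver, with a median log2 fold change of −0.069. The lowest difference was that of C8b, a gene of the membrane attack complex. Next came C8a (−0.205) and C2 (−0.204), of which C2 belongs to the early steps. C8g and Hc, which also encode parts of the complex, had higher means in LERKO liver. C8b encodes the beta chain of C8 and had signals of 10.19, 10.13 and 9.64 in LERKO mice, against 10.03, 10.63 and 10.42 in CT mice. C8a, the alpha chain and the neighbouring gene, had 9.44, 9.02 and 8.71 in LERKO mice, against 8.85, 9.60 and 9.33 in CT mice. For both chains LERKO replicate 3 was the lowest mouse and CT replicate 2 the highest, while CT replicate 1 lay among the LERKO mice. The log2 fold change was −0.37 for C8b (standard error 0.20, 1.30-fold lower, adjusted p = 0.745) and −0.20 for C8a (standard error 0.24, 1.15-fold lower, adjusted p = 0.861), both from limma. Without CT replicate 1 C8b had −0.54 (unadjusted p = 0.0319, adjusted p = 0.795 from limma). The groups were then apart because the CT mouse that lay among the LERKO mice was left out. In this fit 22.5% of all probe sets had groups apart. C8g, the third chain of C8, is encoded on another chromosome and differed by 0.045 on the log2 scale (standard error 0.064), with a within-group SD of 0.039 beside 0.30 for C8b and 0.37 for C8a.

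The promoters of C8b and C8a are shown because the chains varied together from mouse to mouse. Windows are as above, C8b at chr4:104766067-104766366 on the plus strand and C8a at chr4:104876349-104876648 on the minus strand. Capitals mark AGGTCA and also GTTAAT, the core of the recognition sequence of the hepatocyte factor HNF1, each on either strand.
C8b: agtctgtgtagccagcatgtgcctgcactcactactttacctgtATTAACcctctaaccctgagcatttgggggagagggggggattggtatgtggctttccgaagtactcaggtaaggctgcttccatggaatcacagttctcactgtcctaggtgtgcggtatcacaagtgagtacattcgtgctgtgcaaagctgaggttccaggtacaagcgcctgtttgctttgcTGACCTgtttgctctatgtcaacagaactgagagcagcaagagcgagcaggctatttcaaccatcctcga
C8a: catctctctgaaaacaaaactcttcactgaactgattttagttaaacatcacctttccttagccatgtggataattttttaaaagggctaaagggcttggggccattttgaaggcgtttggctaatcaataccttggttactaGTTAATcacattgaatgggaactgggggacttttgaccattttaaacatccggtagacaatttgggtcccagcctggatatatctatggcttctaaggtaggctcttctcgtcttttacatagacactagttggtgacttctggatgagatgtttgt
GTTAAT was found once in each window, and AGGTCA once in the C8b window, on its minus strand. GTTAAT was found for 8 of the 26 matched genes (30.8%), the others being C4bp, F13b, F2, Fga, Fgb and Hc, and in 7.1% of all windows. These shares were not tested against each other either.

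Other genes of the late complement steps overlapped between the groups as well. C9, whose product lines the pore, had 10.39, 10.19 and 10.15 in LERKO mice, against 10.26, 10.71 and 10.34 in CT mice (log2 fold change −0.20, standard error 0.14). CT replicate 2 was high and the other 5 mice lay close together. Hc, the gene of C5, had a log2 fold change of 0.034 (−0.22 to 0.29). C6 had −0.14 (standard error 0.20) and was highest in CT replicate 3, the array with pancreas transcripts, at 7.96, beside 7.24 to 7.55 in the other 5 mice. Without that array its log2 fold change was 0.089. The part of the transcripts of other organs in this was not tested.

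In the early steps, C2, the protease precursor of the classical and lectin pathways, had 8.74, 9.04 and 8.85 in LERKO mice, against 9.07, 9.31 and 8.87 in CT mice. The groups overlapped through LERKO replicate 2 and CT replicate 3, and LERKO minus CT was −0.20 on the log2 scale, with a standard error of 0.13 and an adjusted p of 0.783 in limma. Without CT replicate 3 it was −0.31 (unadjusted p = 0.0485, adjusted p = 0.447 from limma), and without both arrays that held transcripts of other organs it was −0.39 (unadjusted p = 0.0254, adjusted p = 0.410 from limma). Cfb, the counterpart of C2 in the alternative pathway and its neighbour on the chromosome, had −0.025 (−0.23 to 0.18). Among the mannose-binding lectins, which recognise sugars on microbes, Mbl2 had 9.59, 9.73 and 9.60 in LERKO mice, against 9.37, 9.78 and 9.43 in CT mice. CT replicate 2 was above the LERKO mice and the other CT mice below them, and the log2 fold change was 0.11 (standard error 0.12). Without CT replicate 2 it was 0.24 (unadjusted p = 0.0256, adjusted p = 0.773 from limma). Mbl1 had 0.085 (standard error 0.12), and Masp1, a protease that binds these lectins, had 0.00086 (standard error 0.079). The regulators that inactivate C3b and C4b were represented by Cfi, the protease factor I, and C4bp, its cofactor. Cfi had 11.46, 11.36 and 11.40 in LERKO mice, against 11.45, 11.83 and 11.44 in CT mice. CT replicate 2 was far above the other 5 mice, and the log2 fold change of −0.17 (standard error 0.12) was −0.040 without it. C4bp had −0.040 (standard error 0.081).

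The 3 chains of C1q, made by macrophages and therefore outside the cells in which cre acts, varied more among CT mice than among LERKO mice. C1qa had 8.05, 8.20 and 8.10 in LERKO mice, against 8.43, 8.02 and 8.23 in CT mice. C1qb had 10.15, 10.32 and 10.19 in LERKO mice, against 10.26, 9.88 and 10.56 in CT mice. C1qc had 9.23, 9.47 and 9.14 in LERKO mice, against 9.53, 8.82 and 9.78 in CT mice. CT replicate 2 was the lowest of the 6 mice for all 3 chains, and CT replicate 3 was the highest for C1qb and C1qc. The log2 fold changes were −0.11, −0.016 and −0.097, with adjusted p values of 0.847 or more from limma. Without CT replicate 2, C1qc had −0.38 (unadjusted p = 0.0325, adjusted p = 0.773 from limma) and C1qa −0.21 (unadjusted p = 0.0688). The Kupffer cell and macrophage markers, 10 of 10 measured and 8 of them at a signal of 100, showed the same low mouse, with a summed linear signal of 3346 to 3905 in LERKO mice and 2515 to 4105 in CT mice, of which CT replicate 2 had 2515. Vsig4, a complement receptor of Kupffer cells, was at 9.50 in CT replicate 2, and at 10.25 to 10.46 in LERKO mice and 10.19 and 10.60 in the other CT mice. The part of these cells in the C1q values was not tested, and in whole liver fewer cells of a type cannot be told apart from less RNA per cell.

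**Figure D4:**
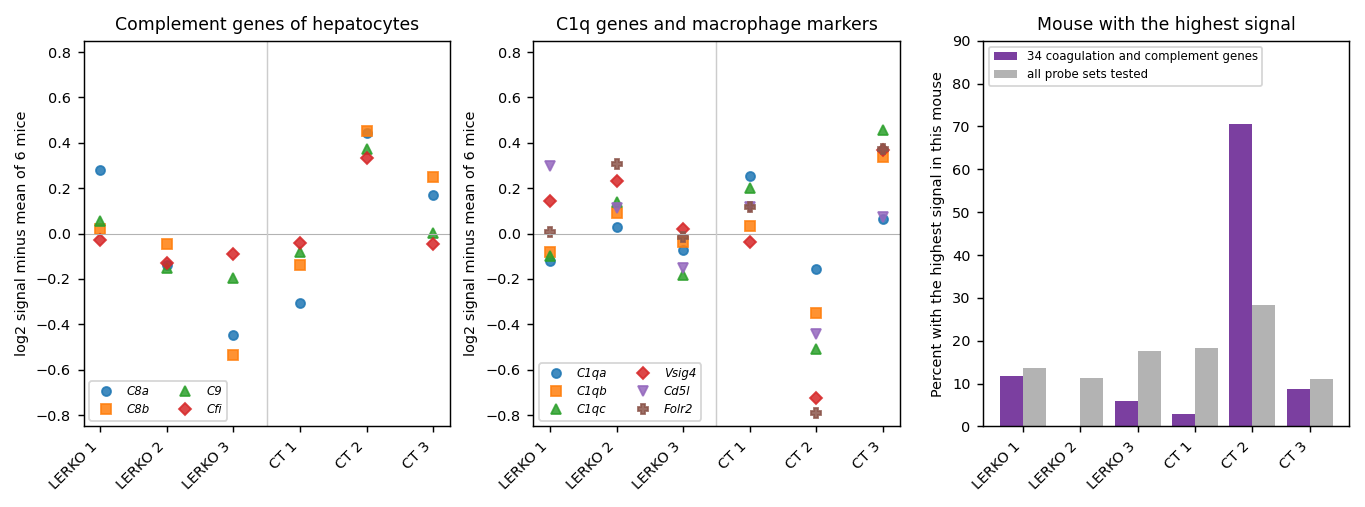
Left and middle panels, log2 signal relative to the mean of the 6 mice for C8a, C8b, C9 and Cfi and for the C1q genes with 3 macrophage markers, 1 point per mouse. In CT replicate 2 the genes of the left panel are highest and those of the middle panel lowest. Right panel, percent of the 34 genes and of all probe sets whose highest signal is in each mouse, with CT replicate 2 at 70.6% and 28.3%.

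CT replicate 2 had the highest signal of the 6 mice for 24 of the 34 genes (70.6%), where this was so for 28.3% of all probe sets tested. These 24 genes comprised 9 of 12 procoagulant genes, all 6 anticoagulant and fibrinolytic genes and 9 of 16 complement genes. Relative to the mean of the 6 mice, the genes other than C1q averaged 0.14 in CT replicate 2 and between −0.061 and 0.0060 in the other 5 mice. The 8 hepatocyte markers averaged 0.073 in that mouse and between −0.059 and 0.0245 in the others. Without CT replicate 2, 17 of the 34 genes had higher and 17 had lower means in LERKO liver. Their median log2 fold change was then 0.0051, beside 0.0058 over all probe sets. Leaving out 1 array at a time gave 0 to 2 genes with an unadjusted p under 0.05, which were C1qc and Mbl2 without CT replicate 2, C8b without CT replicate 1, C2 without CT replicate 3 and Pros1 without LERKO replicate 2. The share of all probe sets under that threshold was 6.24%, 6.10%, 11.2% and 7.53% in these 4 fits.

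Genes that serve the vitamin K dependent factors and their secretion included the only one under an unadjusted p of 0.05. Of 8 such genes, all measured, 1 passed in the higher direction and 0 in the lower direction, where 2.98% and 4% of all probe sets did. Pcsk6, a proprotein convertase, had 10.28, 10.19 and 10.39 in LERKO mice, against 10.15, 9.82 and 10.07 in CT mice. The groups did not overlap, with a log2 fold change of 0.27 (standard error 0.11, unadjusted p = 0.0398, adjusted p = 0.703 from limma). Ggcx is the carboxylase that converts glutamate residues of prothrombin, factors VII, IX and X and proteins C and S to their calcium-binding form. It had 9.29, 9.41 and 9.37 in LERKO mice, against 9.46, 9.70 and 9.50 in CT mice. All LERKO mice were below all CT mice, with a log2 fold change of −0.20 (standard error 0.087, unadjusted p = 0.0596, adjusted p = 0.703 from limma). The groups were thus apart for 1 of the 8 genes in each direction, beside 5.91% of all probe sets in the higher and 7.13% in the lower direction. Vkorc1, which recycles vitamin K for this reaction, had 0.061 (standard error 0.077).

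Of 22 further genes of coagulation and fibrinolysis 19 were measured and 8 passed the signal filter, 2 with higher and 6 with lower means in LERKO liver. By limma 0 of these 8 had an unadjusted p under 0.05. The groups were apart for 1 of them, lower in LERKO liver, beside 7.13% of all probe sets tested. The smallest p values belonged to Habp2, a protease that can activate factor VII, with a log2 fold change of −0.13 (standard error 0.095) and groups that did not overlap, Proz, which encodes protein Z, a cofactor in the inhibition of factor X, with −0.099 (standard error 0.073), and Hrg, the histidine-rich glycoprotein of plasma, with −0.090 (standard error 0.077). Of 24 further complement genes 19 were measured and 13 passed, 8 with higher and 5 with lower means, and again 0 had an unadjusted p under 0.05 in limma. Fcna, a ficolin of macrophages that recognises microbial sugars, had 0.21 (standard error 0.11), C1ra, a protease of the C1 complex, −0.19 (standard error 0.12) and Cr1l, a regulator on cell surfaces, −0.15 (standard error 0.11).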

How the data were processed

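Liver RNA of 3 LERKO and 3 CT female mice was hybridised to Affymetrix Mouse Gene 1.1 ST arrays. The deposited values are log2 signals for 35556 probe sets, which the authors made with RMA of the oligo package (version not given in the sources used here). Its quantile step gives all arrays the same distribution, so differences are relative to it.

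Probe sets were named from the platform annotation, with symbols updated by gene identifier (21185 of 21218 probe sets with 1 gene were found in RefSeq). A probe set was removed when none of the arrays reached 100, which is 1 reading of the filter in the study's methods. The study compared groups with limma, and so did this fit, with limma 3.58.1 in R 4.3.3, two-sided. Benjamini-Hochberg adjustment was over the 10633 probe sets kept, at a threshold of 0.05. Standard errors and 95% intervals come from this fit, which was tested on simulated data. The methods' t-test assumes unequal variance. Promoter windows are from RefSeq. Genes and lists were chosen with earlier results of these data known. Values in all arrays are given for the 12 genes of smallest p, the C1q and fibrinogen genes and, beyond that rule, for further genes chosen after their values were seen (F12 and Plg). In each further list the 3 genes of smallest p are named. Alternatives covered the filter, the probe sets, the variance model, array weights, the test, 2 normalizations, the replicate block and leaving out arrays.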

Additional observations from a re-analysis of the deposited data

How the results depend on the processing

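In every alternative run, 0 of the 34 genes passed an adjusted p of 0.05. The 12 genes of smallest p kept their direction in each of them. They were picked by p from the same arrays, so the kept direction follows in part from that choice. Of the other 22 genes 17 turned direction in at least 1 run, among them C6 and C1qc without CT replicate 3. Over all probe sets 3 passed when a signal of 100 was required in all 6 arrays, 1 passed with a mean-variance trend, and 0 to 1 with 1 array left out. An unadjusted p under 0.05 was reached by 2 of the 34 genes with CT replicate 3 and LERKO replicate 2 both left out (beside 10.8% of all probe sets), and by 0 to 2 with 1 array left out (3.91% to 11.2%). The groups were apart for 3 genes after cyclic loess (8.82%, beside 13.7% of all probe sets). With the mean over the probe sets of a gene they were apart for 2 (5.88%, beside 13%). They were apart for 6 with the same 2 arrays left out (17.6%, beside 44.0% of all probe sets), and for 3 to 9 with 1 array left out (8.82% to 26.5%, beside 19.7% to 29.1%). The 9 were without CT replicate 2, beside 23.2% of all probe sets. The median log2 fold change of the procoagulant genes was −0.0084 and turned to 0.018 with array weights, 0.0020 after cyclic loess and 0.027 without CT replicate 2. That of the complement genes lay between −0.10 and −0.031 with 1 array left out. With the replicate number as a block, 0 probe sets passed, 574 had an unadjusted p under 0.05, beside 742 without the block, and 0 of the 34 genes did. Mice of the same number did not deviate together (correlations of −0.157, −0.0731 and −0.137). These values were centred within each group of 3 and include the 2 arrays with transcripts of other organs. They therefore cannot decide whether the mice were paired. The signal of each of the 34 genes was above 100 in every array. Whether background limited their values was not tested.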

Other observations

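Genes of the acute phase response, the rise of plasma proteins in inflammation to which fibrinogen and several complement factors belong, were also measured. Of 17 listed genes 16 were measured and 15 passed the signal filter, 9 with higher and 6 with lower means in LERKO liver, a median log2 fold change of 0.034 and 0 with an unadjusted p under 0.05 in limma. Orm2, an acid glycoprotein of plasma, differed by 0.27 on the log2 scale (standard error 0.15), Hp, the haptoglobin that binds free haemoglobin, 0.17 (standard error 0.095), and Lcn2, a protein that withholds iron from bacteria, 0.45 (standard error 0.32). Lcn2 was at 8.65, 7.75 and 8.73 in LERKO mice and at 8.44, 7.73 and 7.63 in CT mice, so 3 mice were high across both groups.

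F3, the tissue factor that starts coagulation outside the vessel, lay below a signal of 100 in all 6 arrays and was not tested. It had 4.82, 5.57 and 5.78 in LERKO mice, against 6.28, 6.15 and 5.87 in CT mice. All LERKO mice were below all CT mice, where without the signal filter the groups were apart for 10.3% of all probe sets. F3 was named after its values were seen.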
